A study of Mus musculus with 4 samples.

Results

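The migratory and the activated cells of mice whose TH17 cells lack the TGFβ receptor were set against each other, gene by gene. TGFβR-KO cells were taken by their names, and within them the cells carrying the deposited identity Migratory, 831 cells, and those carrying the identity Activated, 318 cells. These 1149 cells were 38.6% of the 2975 TGFβR-KO cells and came out of 5080 cells in all. Mice on the C57BL/6 background were 7 to 8 months old; their small intestines were dissociated, CD4+ cells bearing YFP were sorted, and single-cell RNA-seq was run in droplets. Every group carried Il17a-Cre and the Rosa26-stop fl/fl-yfp reporter, in which Cre removes a stop cassette, so that YFP marks cells that have expressed Il17a at some time, whatever they express when collected. TGFβR-KO mice additionally carried Tgfbr2 fl/fl, TGFβR-CA mice carried a constitutively active form of Tgfbr1 behind a floxed stop cassette (Stop fl/fl-Tgfbr1-CA), and TGFβR-WT mice carried neither. The reporter follows only cells in which the Il17a promoter was active, and cells that never expressed it are outside the sort.

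TGFβR-KO was 1 library, and how many mice it holds is not given in the sources used here. The 8 cell identities had been assigned by the authors after clustering on the same transcripts, over all libraries together. A difference between the clusters is therefore what the clustering used, and no test of it was made. The sizes are given with intervals that cover counting error only, and p-values are not given. Levels are corrected UMIs of a gene per 10000 corrected UMIs of the cluster (UMIs are counted transcript molecules, corrected by the authors for the depth of each cell). Ratios carry a pseudocount of 0.1 per 10000. A gene was counted as higher in a cluster when its ratio reached 1.5, which is 0.585 on the log2 scale.

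The signals at issue are well known. Lymphocytes leave a tissue by following sphingosine 1-phosphate through the receptor S1PR1, whose gene is switched on by the transcription factor KLF2, and CD69 holds them back by removing S1PR1 from the surface. T cells enter and stay in the small intestine through CCR9, which reads the epithelial chemokine CCL25, through CXCR6, and through the integrin α4β7. TGFβ is needed for TH17 cells to form and afterwards acts on the differentiated cells.

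The starts of 4 genes that lie on opposite sides of the comparison are shown for orientation, since members of the Krüppel-like family, to which KLF2 and KLF3 belong, bind a short core, CACCC, read GGGTG on the other strand. Each RefSeq window (GRCm38.p6) holds 250 bases before the transcription start and 50 from it, and the core on either strand is in capitals. The windows are chr8:72318812-72319111 (plus strand) for Klf2, chr5:64803271-64803570 (plus) for Klf3, chr9:123766961-123767260 (plus) for Ccr9 and chr1:20730655-20730954 (plus) for Il17a.
Klf2: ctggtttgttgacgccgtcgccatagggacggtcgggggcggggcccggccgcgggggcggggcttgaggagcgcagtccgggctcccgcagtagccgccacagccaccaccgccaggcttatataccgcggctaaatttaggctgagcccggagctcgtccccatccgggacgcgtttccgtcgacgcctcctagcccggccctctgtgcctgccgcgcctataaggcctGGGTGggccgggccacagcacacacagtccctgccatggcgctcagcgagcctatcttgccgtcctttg
Klf3: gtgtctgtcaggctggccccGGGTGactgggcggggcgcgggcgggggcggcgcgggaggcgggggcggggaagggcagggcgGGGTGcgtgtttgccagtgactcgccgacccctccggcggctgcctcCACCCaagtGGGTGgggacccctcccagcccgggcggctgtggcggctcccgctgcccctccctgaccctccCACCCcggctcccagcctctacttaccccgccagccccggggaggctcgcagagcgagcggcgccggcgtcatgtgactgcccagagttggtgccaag
Ccr9: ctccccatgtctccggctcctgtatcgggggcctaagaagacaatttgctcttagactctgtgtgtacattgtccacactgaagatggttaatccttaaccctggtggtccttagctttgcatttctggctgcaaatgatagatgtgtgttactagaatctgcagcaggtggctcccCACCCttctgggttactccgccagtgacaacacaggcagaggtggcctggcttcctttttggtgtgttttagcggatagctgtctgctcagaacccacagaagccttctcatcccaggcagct
Il17a: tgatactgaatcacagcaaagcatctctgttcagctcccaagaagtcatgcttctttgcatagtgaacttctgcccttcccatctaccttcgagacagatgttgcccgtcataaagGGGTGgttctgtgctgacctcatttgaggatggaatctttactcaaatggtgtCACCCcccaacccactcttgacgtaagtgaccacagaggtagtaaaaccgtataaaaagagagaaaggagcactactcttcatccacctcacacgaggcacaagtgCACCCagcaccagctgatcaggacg
The Klf2 window held 1 core, the Klf3 window 5, the Ccr9 window 1 and the Il17a window 3, with no 2 cores overlapping. Of all 32851 windows of this length, 57.5% held at least 1 core, and of the windows of the genes compared below, 62.7% did. The share was 73.9% of 92 windows of genes higher in Migratory cells and 70.1% of 144 windows of genes higher in Activated cells. These windows covered 59 of 69 and 107 of 150 such genes, some with several windows, so they are shares of windows and not of genes. The window of S1pr4, not shown, held 1 core. No window for S1pr1, Lag3 or Rgs1 was in the table used.

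Migratory cells held a median of 4004 corrected UMIs and 1592 detected genes, Activated cells 3743 and 1591. The correction brings cells to like totals, so these values do not show how deeply either cluster was sequenced. Mitochondrially encoded transcripts made up a median of 0.903% and 0.955% per cell. The T cell markers (Cd3d, Cd3e, Cd3g, Trac, Trbc1, Trbc2 and Cd4) were all detected, Cd3e in 97.1% of Migratory and 99.1% of Activated cells and Cd4 in 74.0% and 79.6%. Cd8a was at 0 in both, as were 4 of 5 γδ T cell markers. Markers of B and plasma cells summed to 0.220 and 0.523 per 10000, against 0.220 to 5.57 over the 8 clusters. Epithelial markers summed to 0.152 in Migratory and 0.376 in Activated cells, the highest of the 8 clusters, with Krt18 in 0.842% and 5.97% of cells and Krt19 at 0. Their part in the differences below was not tested. Tgfbr2, the floxed gene, was at 1.93 per 10000 in Migratory and 1.80 in Activated cells of TGFβR-KO, at 2.51 and 1.49 in the larger and 1.33 and 1.79 in the smaller set of TGFβR-WT cells, and at 2.05 and 2.03 in TGFβR-CA. Which exon the reads fell in is not given, so a transcript that has lost the floxed part can still be counted, and these levels do not check the deletion.

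Of 3058 genes with a mean level of at least 0.5 per 10000, 69 were higher in Migratory cells (2.26% of genes compared) and 150 in Activated cells (4.91%). At a ratio of at least 2, the numbers were 21 and 49. The most skewed genes on the Migratory side were Klf2 and S1pr1 of tissue egress, followed by Rasgrp2, Cdc25b and Atp1b3 from outside the lists, and among the most skewed on the Activated side were Il17a and the checkpoint receptors Lag3 and Ctla4. The gut homing receptors Ccr9 and Cxcr6 were also higher in Activated cells. Genes higher in Migratory cells made up 31.5% of those past the ratio. That split depended on the scale: it was 47.4% (102 against 113 genes) when ratios were divided by their median, and 49.5% (137 against 140) when ribosomal protein and mitochondrially encoded genes were left out of the total, which shifted the median log2 ratio of all genes by 0.10.

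**Figure D1:**
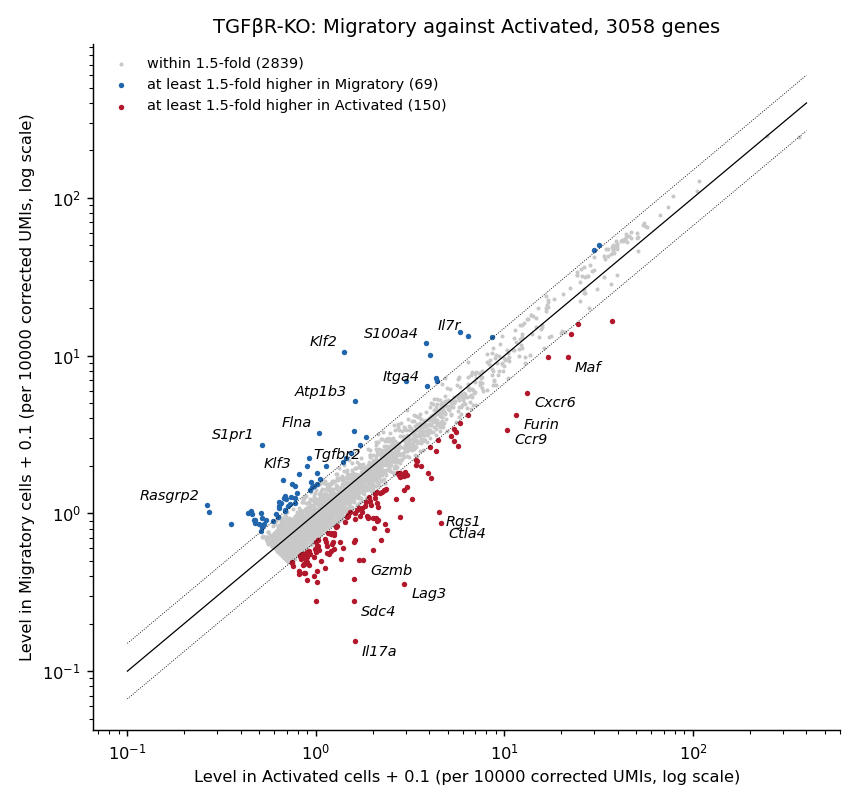
Level of each of 3058 genes in Migratory (vertical) and Activated (horizontal) TGFβR-KO cells, per 10000 corrected UMIs plus 0.1, both axes on a log scale; the solid line is equality and the dotted lines a ratio of 1.5. Most genes lie between the dotted lines, Klf2 and S1pr1 stand farthest above them and Il17a, Lag3, Sdc4 and Ctla4 farthest below.

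Klf2 was at 10.5 per 10000 in Migratory cells (95% Poisson interval 10.1 to 10.8) and at 1.32 in Activated cells (1.12 to 1.54), a log2 ratio of 2.90. It was detected in 82.2% of Migratory cells (exact Clopper-Pearson 95% interval 79.4 to 84.7) and in 20.4% of Activated cells (16.1 to 25.3). Germinal center TFH cells of the same library, with a median of 3826.5 corrected UMIs, showed it in 11% of 318 cells; they are given beside each share as a low reference, and how much of their signal is stray transcripts was not measured. S1pr1, the egress receptor itself, was at 2.62 (2.45 to 2.80) against 0.417 (0.310 to 0.548), a log2 ratio of 2.40. It was seen in 53.8% of Migratory cells (50.3 to 57.2) and 11% of Activated cells (7.79 to 15). The Activated share could not be told from the 9.43% of germinal center TFH cells (6.46 to 13.2).

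S1pr4, a second sphingosine 1-phosphate receptor, was at 2.13 against 0.817 (log2 ratio 1.28) and was detected in 54.5% and 25.5% of cells. These were the 3 of 6 compared egress and lymphoid homing genes that were higher in Migratory cells; none was higher in Activated cells, and the list's median log2 ratio was 0.69 against -0.09 over all genes compared. Foxo1, which lies upstream of Klf2 in T cells, was at 1.15 and 1.07, and Gpr183, an oxysterol receptor, at 2.43 and 2.37. Cd69 was at 0.454 and 0.654, a log2 ratio of -0.44. Ccr7, a receptor for entry into lymph nodes, was at 0.0762 and 0, too low to be compared.

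Among the 8 TGFβR-KO clusters, S1pr1 and S1pr4 were highest in Migratory cells. For S1pr1 the other 7 lay between 0.309 and 0.773, and Activated cells ranked 6th. Klf2 ranked differently. It was highest in the Tumorigenic cluster at 13.5, with Migratory second and Pre-tumorigenic at 8.09, and Activated cells were above germinal center TFH cells alone, at 0.503. The pooled Klf2 level of the Tumorigenic cluster was thus above the Migratory level, with S1pr1 at 0.637. Per cell, Klf2 was only summed with S1pr1, S1pr4 and Ccr7, and S1pr1 and S1pr4 were themselves highest in Migratory cells. The sum therefore cannot show whether the order of the Klf2 levels holds in the typical cell. That sum had a median of 2 corrected UMIs in Tumorigenic cells and 5 in Migratory cells. It was 0 in 31.3% of Tumorigenic and 9.27% of Migratory cells, with maxima of 80 and 23. The spread of Klf2 alone over Tumorigenic cells was not measured.

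The gut homing receptors lay on the other side. Ccr9 was at 3.30 in Migratory (3.1 to 3.5) and 10.3 in Activated cells (9.69 to 10.8), a log2 ratio of -1.61. It was detected in 45.6% of Migratory and 73.3% of Activated cells, and in 12.3% of germinal center TFH cells. Cxcr6 was at 5.74 (5.48 to 6.0) and 13.1 (12.5 to 13.8), in 76.1% and 92.8% of cells against 38.4% of germinal center TFH cells. Both receptors were highest in Activated cells among the 8 clusters, and Migratory cells, 4th for both, still exceeded the germinal center TFH share. Lztfl1, which encodes a regulator of ciliary protein traffic, was at 0.847 and 2.70. Its gene (chromosome 9, 123694416 to 123717697, minus strand) lies inside the annotated span of Ccr9 (123678439 to 123784330, plus strand), with Cxcr6 next to it (123806475 to 123811760); how the counting treated the overlap of Lztfl1 with Ccr9 is not given in the sources used here.

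The other homing receptors did not follow Ccr9 and Cxcr6. Ccr4, the receptor for CCL17 and CCL22, was higher in Migratory cells (0.759 against 0.400, log2 ratio 0.78, but 0.48 with a pseudocount of 0.5). Ccr6, the TH17 receptor for CCL20, was at 3.26 and 2.53 and Cxcr3 at 1.44 and 1.06, both under the ratio of 1.5. Of 6 receptors compared, 1 was higher in Migratory and 2 in Activated cells, and the list's median log2 ratio was 0.32. Of 5 integrin chains compared, Itga4 was higher in Migratory cells, at 6.31 against 3.79, and Itgal, the LFA-1 chain, in Activated cells, at 3.34 against 5.30. Itgb7, the partner of Itga4 in the gut homing integrin, was at 6.50 and 4.55, a log2 ratio of 0.50. Itga4 and Itgb7 were both highest in Migratory cells among the 8 clusters. Of the gut homing genes, Itga4 was thus past the ratio toward Migratory cells and Ccr9 and Cxcr6 toward Activated cells, while Itgb7 was under it.

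**Figure D2:**
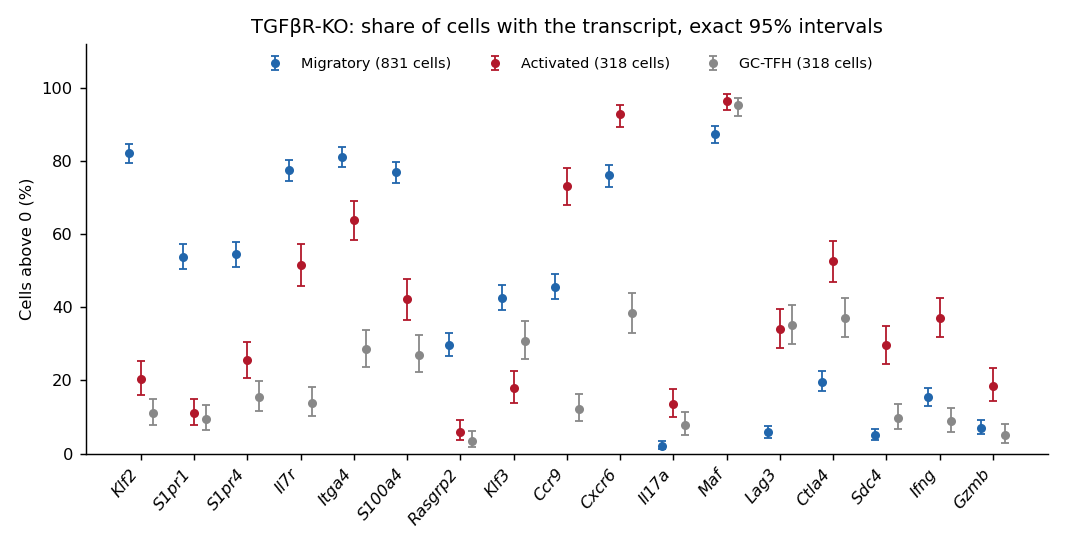
Share of TGFβR-KO cells above 0 (vertical, %) for 17 genes (horizontal) in Migratory, Activated and germinal center TFH cells; points are shares and bars exact 95% intervals, which cover counting error only. Klf2 is in 82.2% of Migratory and 20.4% of Activated cells, Ccr9 in 45.6% and 73.3%, and Il17a in a minority of every cluster shown.

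Within single cells the 2 receptor systems were not exclusive. S1pr1 and Ccr9 were seen together in 203 of 831 Migratory cells (24.4%, 21.5 to 27.5) and in 24 of 318 Activated cells (7.55%, 4.9 to 11). Ccr9 was found in 45.4% of Migratory cells with S1pr1 and in 45.8% of those without it. S1pr1 and Klf2 went together more often. Klf2 was seen in 93.7% of Migratory cells with S1pr1 and 68.8% of those without (intervals 91.1 to 95.8 and 63.9 to 73.4), and in Activated cells in 57.1% and 15.9%. Both pairs come from the same sparse counts of the same cells, and no test was made.

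The corrected UMIs of S1pr1, S1pr4, Klf2 and Ccr7 were also summed in each cell, as were those of Ccr9, Cxcr6, Itgae and Cd69. The gut homing integrin chains Itga4 (6.31 in Migratory against 3.79 in Activated cells) and Itgb7 (6.50 against 4.55) were not in the homing sum. The balance below therefore holds for the summed genes only, and a sum with these chains was not made. The egress sum had a median of 5 in Migratory cells (quartiles 3 and 9) and 0 in Activated cells (0 and 1). The homing sum had a median of 3 (1 and 5) and 8 (5 and 12). Egress UMIs outnumbered homing UMIs in 517 Migratory cells (62.2%) and 10 Activated cells (3.14%). The reverse held in 260 Migratory cells (31.3%, 28.1 to 34.6) and 302 Activated cells (95%, 92 to 97.1). Nearly all Activated cells thus lay on one side of this balance, whereas 31.3% of Migratory cells held more transcripts of the summed homing genes. Klf2, S1pr1, Ccr9 and Cxcr6 are among the genes the study names for these clusters. The clusters were made from the same transcripts, so this split is in part what the clustering imposed.

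**Figure D3:**
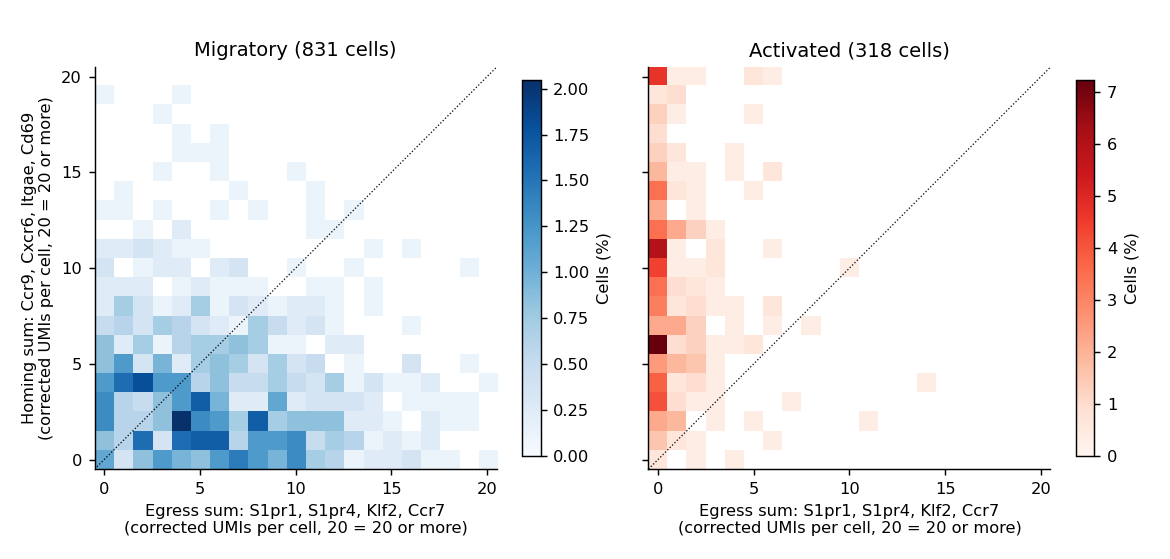
Cells of the Migratory (left) and Activated (right) TGFβR-KO clusters by the corrected UMIs of 4 egress genes (horizontal) and 4 homing and retention genes (vertical), with values of 20 or more placed at 20; colour is the percent of the cluster's cells and the dotted line marks equal sums. Activated cells crowd the left edge, and Migratory cells lie on both sides of the line, 62.2% of them below it.

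Il17a was rare in both clusters. It was at 0.0549 per 10000 in Migratory (0.0325 to 0.0867) and 1.5 in Activated cells (1.29 to 1.74), a log2 ratio of -3.37. It was detected in 18 Migratory cells (2.17%, 1.29 to 3.40), each with 1 corrected UMI, and in 43 Activated cells (13.5%, 9.96 to 17.8). Of the 184 corrected UMIs of Activated cells, 96 (52.2%) were in 5 cells and 40 in a single cell. Activated cells were only 5th among the 8 clusters for Il17a: Pre-tumorigenic, Tumorigenic and Cycling cells were at 8.61, 6.32 and 4.0 and germinal center TFH cells at 1.59. Migratory cells lay with tissue-resident TFH cells, at 0.0519, and CTL cells, at 0.0331.

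Other TH17 genes followed at smaller ratios. Maf, a transcription factor of TH17, TFH and regulatory cells, was at 9.66 and 21.5 and was highest in Activated cells among the 8 clusters. Ahr, the ligand-activated receptor that sustains IL-22 production, was at 0.320 and 0.760, and Batf at 1.90 and 3.52. In all, 6 of 14 TH17 genes compared were higher in Activated cells (among them Il17a, Maf, Ahr and Batf) and none in Migratory cells, with a median log2 ratio of -0.51. Rora, Tmem176a, Tmem176b and Stat3 were under the ratio, with log2 ratios of -0.44, -0.13, -0.23 and -0.28. Tmem176a and Tmem176b were in 77.4% to 84.6% of cells of either cluster against 34.0% and 34.3% of germinal center TFH cells.

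Lag3, which binds MHC class II and restrains T cell activation, was at 0.259 (0.207 to 0.320) and 2.84 (2.55 to 3.16), a log2 ratio of -3.04, and was in 5.78% of Migratory and 34.0% of Activated cells. Ctla4, the competitor of CD28, was at 0.765 and 4.50 (log2 ratio -2.41), in 19.6% and 52.5% of cells. Neither was confined to Activated cells. Lag3 was in 35.2% of germinal center TFH cells, and Ctla4 was higher in Tumorigenic and Pre-tumorigenic cells, at 11.1 and 10.8. Within Activated cells, Ctla4 was seen in 69.4% of cells with Lag3 (59.8 to 78.0) and 43.8% of those without (37.0 to 50.8). Pdcd1, the PD-1 gene, was at 0.226 and 0.539, too low to be compared, and was in 55.3% of germinal center TFH cells against 14.8% of Activated cells.

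Activation and checkpoint genes had a median log2 ratio of -0.82, the lowest of the lists apart from the study's own genes for the activated cluster. Of 14 compared, 10 were higher in Activated cells and none in Migratory cells. Furin, the protease that matures TGFβ among other precursors, was at 4.12 and 11.5, and Cd160 at 0.268 and 0.915. The remaining members were Prdm1, Tnfrsf4, Tnfrsf1b, Icos, Id2 and Bhlhe40. Cd44, Cd40lg, Nt5e and Il2ra were under the ratio, with log2 ratios of -0.20, -0.26, -0.37 and -0.48. Of TH1 and cytotoxic genes, 6 of 11 were higher in Activated cells (Gzmb, Gzma, Ccl5, Ifng, Tnf and Nkg7), none in Migratory cells, and the median log2 ratio was -0.80.

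These cytotoxic transcripts came from few cells. Gzma, granzyme A, was at 0.488 and 1.90 per 10000, yet in only 3.73% and 7.86% of cells, and 5 cells held 76.9% of its corrected UMIs in Migratory and 68.2% in Activated cells. Ccl5 was at 0.762 and 2.21, with 42.1% of the Activated UMIs in 5 cells. Gzmb was at 0.405 and 1.68, in 7.10% and 18.6% of cells. Ifng, the interferon γ gene, was the broadest, in 15.4% of Migratory (13 to 18) and 37.1% of Activated cells (31.8 to 42.7), at 0.835 and 1.99. Tumorigenic cells held it at 21.5, and CTL cells held Gzma and Ccl5 at 14.1 and 124, above both clusters. Without the 5 highest cells of each cluster for the gene, Gzma, Gzmb, Ccl5 and Ifng kept log2 ratios past 0.585 in the same direction.

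Among Activated cells' 10 most skewed genes, several belonged to no list. Sdc4, a heparan sulfate proteoglycan of the cell surface, was at 0.177 and 1.5 (log2 ratio -2.53), in 5.05% and 29.6% of cells. Rgs1, which shortens signals from chemokine and sphingosine 1-phosphate receptors, was at 0.921 and 4.39 (log2 ratio -2.14), in 22.7% and 57.5%. Rbm24, an RNA-binding protein, was at 0.284 and 1.5, and Ppp1r14c, an inhibitor of protein phosphatase 1, at 0.177 and 0.899. Sdc4, Rbm24 and Ppp1r14c were highest in Activated cells among the 8 clusters. Foxp3 was in 0.241% of Migratory and 4.72% of Activated cells and Ikzf2 in 17.0% and 34.3%, and the part of these regulatory T cell markers in the comparison was not tested.

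On the Migratory side, Il7r, the receptor for the survival cytokine IL-7, was at 13.3 (12.9 to 13.7) and 6.30 (5.86 to 6.76), a log2 ratio of 1.07, and was in 77.5% and 51.6% of cells against 13.8% of germinal center TFH cells. Klf3, a repressor of the same family as Klf2, was at 1.68 and 0.711 (log2 ratio 1.14). With Lef1, Bcl2, Slamf6 and Tcf7 these made 6 of 10 stemness and quiescence genes higher in Migratory cells and none in Activated cells, with a median log2 ratio of 0.61. Tcf7, which encodes TCF-1, was at the edge of the ratio, at 0.933 and 0.588, in 30.4% and 20.1% of cells, and it was higher in tissue-resident TFH cells, at 1.62. Leaving out the 2 Migratory cells whose barcode also occurs in another set of cells put Tcf7 just under the ratio, at a log2 ratio of 0.58. With a pseudocount of 0.5, Bcl2, Slamf6 and Tcf7 were under it, at 0.42, 0.47 and 0.40. Ets1 and Btg1, also of the list, were under the ratio toward Activated cells, at -0.35 and -0.48.

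**Figure D4:**
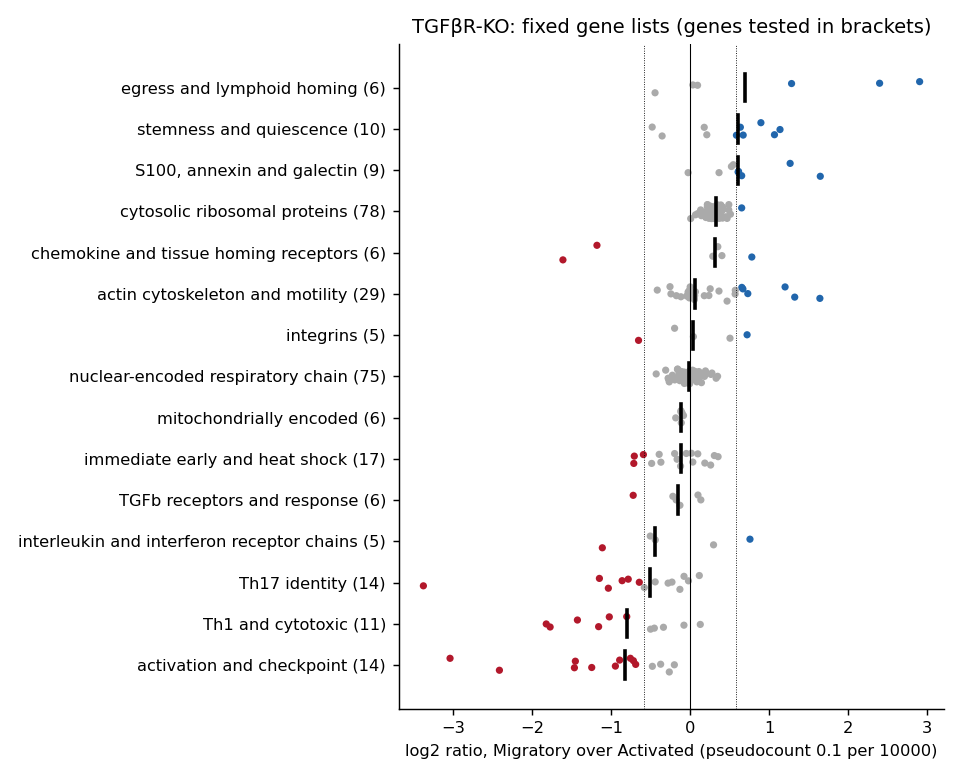
log2 ratio of Migratory over Activated level (horizontal) for the compared genes of 15 fixed lists (vertical, number compared in brackets); each point is a gene, black bars are medians, dotted lines a ratio of 1.5, blue points higher in Migratory and red points higher in Activated. Egress, stemness and S100 lists have medians of 0.61 to 0.69, and activation and cytotoxic lists of -0.82 and -0.80.

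S100a4, a calcium-binding protein linked to motility, was at 11.9 (11.5 to 12.3) and 3.73 (3.39 to 4.08), a log2 ratio of 1.65, in 76.9% and 42.1% of cells. S100a6 was at 13.9 and 5.75. Of 9 compared S100, annexin and galectin genes, 5 were higher in Migratory cells (S100a4, S100a6, S100a13, Lgals1 and Anxa2), none in Activated cells, and the median log2 ratio was 0.61. S100a4 and S100a6 were higher still in Tumorigenic cells. These results did not hold under another division of the cells, which matched the deposited identities poorly (adjusted Rand index, a measure of agreement, 0.16). Both sides of that division held cells of both identities. When the same 1149 cells were divided into 3 groups by genes outside all lists, the median of this list was -0.08, S100a4 and S100a13 fell under the ratio at 0.21 and 0.38, and S100a6 and Lgals1 turned to -0.10 and -0.27.

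Of 29 compared genes of the actin cytoskeleton and motility, 6 were higher in Migratory cells and none in Activated cells. Flna, which crosslinks actin and ties it to integrins, was at 3.14 and 0.940 (log2 ratio 1.64), in 62.6% and 26.4% of cells. Crip1, a LIM domain protein, was at 9.94 and 3.91, and Emp3, a membrane protein, at 6.81 and 2.91; Vim, Tmsb10 and Myo1g completed the 6. The bulk of the machinery was level, with a list median of 0.06. Tmsb4x was at 245 and 247, Pfn1 at 26.3 and 26.5 and Actb at 128 and 107. The rest of the 10 most skewed Migratory genes were outside the lists. Rasgrp2, an exchange factor that activates the integrin switch Rap1, was at 1.03 and 0.163 (log2 ratio 2.10). Cdc25b, a cell cycle phosphatase, was at 0.924 and 0.172, Atp1b3, a subunit of the sodium pump, at 5.06 and 1.5, and Sgk1, a salt- and serum-responsive kinase, at 0.756 and 0.253.

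Ribosomal protein transcripts took 29.4% of corrected UMIs in Migratory and 23.5% in Activated cells. Of 78 ribosomal protein genes compared, every one had a log2 ratio above 0, against 34.6% of all genes compared, although Rps19 alone reached 1.5 (46.9 against 29.8). The respiratory chain genes were level, with none of 75 past the ratio and a median of -0.01, as were the 6 mitochondrially encoded genes compared, at -0.11. Cell cycle genes were almost all too low to compare, Cenpa alone passing at 0.524 and 0.515. Of 17 immediate early and heat shock genes, which react to tissue dissociation, Egr1, Fos and Jun were higher in Activated cells, and the list median was -0.12. Without the 5 highest cells, Egr1 and Jun were under the ratio, at -0.38 and -0.55, as they were with a pseudocount of 0.5, at -0.58 and -0.55.

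Of 15 receptor and pathway genes of TGFβ that were measured, only 6 could be compared, and these differed little. Among them Runx1 alone was past the ratio, at 1.33 in Migratory and 2.26 in Activated cells. Tgfbr3, Smad2, Smad3, Skil, Smurf2, Pmepa1, Tgif1 and Ldlrad4 were too low to compare. Tgfbr2, Smad4, Ski and Tgfb1 had log2 ratios of 0.10, 0.14, -0.13 and -0.18, and Tgfbr1 was too low to compare, at 0.241 and 0.302. Of 5 interleukin and interferon receptor chains compared, Il17ra was higher in Migratory cells (1.49 against 0.842, just under the ratio with a pseudocount of 0.5, at 0.57) and Il2rb, a chain of the IL-2 and IL-15 receptors, in Activated cells (1.13 against 2.56). Of the TFH list, 2 genes could be compared, and Tox2 was higher in Activated cells, at 0.479 and 1.10, with the highest level in germinal center TFH cells.

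The genes that the study names for these clusters were chosen on these cells and are no independent evidence. Of 10 named for the migratory cluster, 9 were higher in Migratory cells, Lsp1 being at 13.3 and 9.60 (log2 ratio 0.47). The list for the activated cluster includes Lag3, Ctla4 and Pdcd1, which the study gives as later activation markers. It reports them as lower in that cluster of TGFβR-KO than of TGFβR-WT and TGFβR-CA. Of 9 compared for the activated cluster, 8 were higher in Activated cells. Ly6a, the Sca-1 gene, was the exception, at 9.47 and 10.3, in 81.4% and 80.2% of cells. It was higher in both clusters than in the other 6, and thus did not separate them. Smco4 was at 1.94 and 3.28.

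The same ratio was taken in the other groups, where the clusters were small: 73 Migratory and 88 Activated cells in the larger set of TGFβR-WT cells, 16 and 29 in the smaller, and 52 and 130 in TGFβR-CA. The identities were assigned over all groups together, so likeness between groups is in part what the clustering imposed, and no difference between groups was tested. The study sequenced TGFβR-KO with TGFβR-WT cells in a first run and TGFβR-CA with TGFβR-WT cells in a second. Which TGFβR-WT set came from which run is not given in the sources used here. Differences in level between the sets may therefore also be differences between runs, which was not tested. Of the 69 genes higher in Migratory cells of TGFβR-KO, 67, 50 and 64 had the same direction in these 3 sets and 47 in all of them, against 14.0% of all genes compared that were higher in Migratory cells throughout. Of the 150 higher in Activated cells, 136, 120 and 137 had the same direction and 107 in all, against 29.4% of all genes compared.

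Klf2 in Migratory cells was at 9.42 and 7.84 in the TGFβR-WT sets and 7.69 in TGFβR-CA, against 10.5 in TGFβR-KO. In Activated cells it was at 0.311, 0.244 and 0.0751, against 1.32 in TGFβR-KO, where the ratio was the smallest of the 4. S1pr1 in Migratory cells was at 4.36 and 1.92 in TGFβR-WT and 2.84 in TGFβR-CA, around the 2.62 of TGFβR-KO. Ccr9 in Activated cells was at 14.2 and 18.7 in TGFβR-WT and 14.1 in TGFβR-CA, all above the 10.3 of TGFβR-KO, whereas Cxcr6 was at 11.3, 7.32 and 6.41, all under its 13.1. Cxcr6 in Migratory cells was at 3.88, 2.22 and 1.12, again under the 5.74 of TGFβR-KO.

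Lag3 and Il17a ran lower in TGFβR-KO than in the other sets. Lag3 was at 0.998, 1.33 and 2.33 in Migratory cells of the larger and smaller TGFβR-WT sets and of TGFβR-CA, and at 10.9, 15.3 and 10.7 in their Activated cells. The TGFβR-KO levels were 0.259 and 2.84. Il17a in Activated cells was at 5.19, 19.0 and 11.5 there, against 1.5. Gzmb had no corrected UMI in Migratory cells of any of the 3 sets, where it was at 4.76, 1.71 and 2.55 in Activated cells, while 133 corrected UMIs were counted over the 831 Migratory cells of TGFβR-KO. With 1 library for TGFβR-KO and 1 for TGFβR-CA, a difference between groups and a difference between libraries cannot be told apart.

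Several genes that were higher in Activated cells of TGFβR-KO did not keep a direction elsewhere. Ccl5 had log2 ratios of 1.39 in the larger TGFβR-WT set, from 33 and 13 corrected UMIs, and no corrected UMI in either cluster of TGFβR-CA. Egr1 was at 0.02 in the larger TGFβR-WT set, at 1.07 in the smaller, from 10 and 8 corrected UMIs, and at -2.00 in TGFβR-CA. Itgal and Runx1 were at -0.12 and -1.40 in the larger TGFβR-WT set and at -0.40 and -0.21 in TGFβR-CA. Only in the smaller set did they turn, to 0.42 and 0.51, from 29 and 39 and from 12 and 15 corrected UMIs. On the Migratory side, Crip1, Vim and Lgals1 were lower in Migratory cells in the smaller TGFβR-WT set alone, at -0.30, -1.24 and -1.38, a set of 16 and 29 cells.

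**Figure D5:**
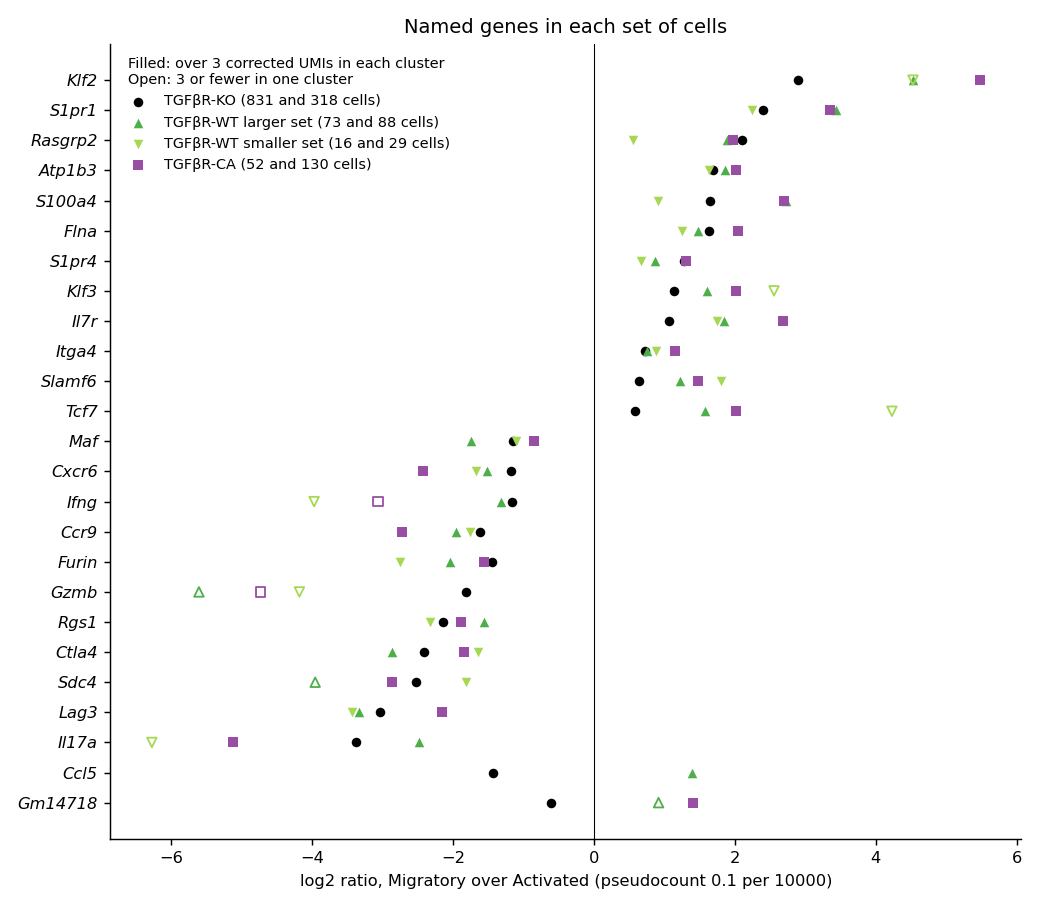
log2 ratio of Migratory over Activated level (horizontal) for 25 genes (vertical) in TGFβR-KO, both sets of TGFβR-WT cells and TGFβR-CA; filled symbols have over 3 corrected UMIs in each cluster, and open symbols rest on 3 or fewer in one cluster and depend on the pseudocount, and a gene with 3 or fewer in both clusters of a set has no symbol there. Klf2, S1pr1, Il7r and Itga4 lie above 0, and Il17a, Lag3, Ctla4, Ccr9 and Cxcr6 below 0, in all 4 sets.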

How the data were processed

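YFP+CD4+ T cells of 4 libraries were measured. Per the submitters' processing notes, reads were processed with Cell Ranger 3.1.0 and Seurat on mm10. The values the authors deposited are natural log values, ln(1 + UMI), of UMIs corrected by them for cell depth, with 1 identity per cell; undoing the log gave whole numbers for every value (tolerance 1e-06). Cell filters had been applied before deposit, among them the removal of γδ T cells and of contaminating epithelial cells. Here corrected UMIs were summed over the cells of a cluster, divided by their total and multiplied by 10000. The table held 13265 genes. The cells of TGFβR-WT carry a group but no sample, and their 2 sets were told apart by the suffix of the cell names. Some genes that the rule would name are not reported here. Genes named are the 10 most skewed in each direction, the genes the study names for these clusters, up to 4 higher in each cluster and 4 others from each list, and genes reversed in every other set; Ccr7, Tgfbr1, Foxp3, Ikzf2, Krt18 and the remaining members listed without values were named after their values were seen. The comparison and the 19 lists were chosen with earlier results of these data known. The ratio was tried on simulated Poisson counts without variation between cells, which does not cover transcripts held by few cells. Scrublet (scanpy 1.11.5) called 13 of 2975 TGFβR-KO cells doublets (0.437%), 1 in each cluster, too few to count as a check of doublets. Alternatives were another pseudocount, filter, ratio or scale, and leaving cells out. Gene positions are from GENCODE on GRCm38, promoter windows from RefSeq. Python 3.11.15, numpy 2.4.6, scipy 1.17.1, pandas 2.3.3 and scikit-learn 1.9.0 were used. Corrected UMIs are not raw counts, so Poisson intervals are approximate.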

Additional observations from a re-analysis of the deposited data

Results flagged for a closer look

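Gm14718, a gene on chromosome X, had a log2 ratio of Migratory over Activated level of -0.605 in TGFβR-KO (0.390 against 0.646 per 10000) and a higher level in Migratory than in Activated cells in every other set of cells, which is what singled it out. The difference between groups was not tested. The other sets held few corrected UMIs, with 4 in Migratory and 1 in Activated cells (larger TGFβR-WT set), 2 and 0 (smaller set) and 11 and 7 (TGFβR-CA), and in TGFβR-KO 32.9% of the Activated UMIs lay in 5 cells.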

How the results depend on the processing

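No gene named as higher in one cluster changed direction under any alternative that kept the deposited identities. The counts of 69 and 150 genes became 36 and 80 with a pseudocount of 0.5, 17 and 37 at a mean level of at least 2, 179 and 512 with no filter beyond 1 corrected UMI in each cluster, and 21 and 49 at a ratio of 2, fewer or more by construction. Leaving ribosomal protein and mitochondrially encoded genes out of the total gave 137 genes higher in Migratory cells, and medians of 0.27 for integrins, -0.62 for TH17 and -0.94 for TFH genes, with the shift of the whole scale given above. With a pseudocount of 0.5 the medians of the egress, stemness and S100 lists were 0.53, 0.41 and 0.51, and 46 of the 54 named genes past the ratio remained past it, without Bcl2, Ccr4, Slamf6, Tcf7, Il17ra, Egr1, Jun and Gm14718; the mean over cells put the S100 list at 0.57.

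Dividing the 1149 cells by k-means on 1000 genes outside all lists was planned with 2 groups and gave no value, since both held mostly Migratory cells (80.6% and 63.2%). With 3 groups, an alternative chosen after seeing the data, 1 group held 210 Activated and 110 Migratory cells and 1 held 361 Migratory and 7 Activated cells. The counts were then 44 and 212. Medians were 0.40 for egress, 0.40 for stemness, -0.080 for S100, 0.13 for TGFβ and -0.22 for cell cycle genes. S100a6 (-0.10), Lgals1 (-0.27) and Jun (0.066) reversed; of the 54 named genes, 41 remained past the ratio, without these and S100a4, S100a13, Vim, Bcl2, Slamf6, Ccr4, Rps19, Ahr, Itgal and Fos. Also chosen after seeing the data was leaving out the 5 highest cells for each gene, after which 51 of the 54 remained past it. The cause was not tested.

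No paired analysis was possible because TGFβR-KO and TGFβR-CA have 1 library each and the cells of TGFβR-WT are not tied to a replicate number. The smaller clusters of the other groups limit their ratios, and a gene under 0.5 per 10000 was not compared.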
